A study of Mus musculus with 6 samples.

Results

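The small leucine-rich proteoglycans (SLRPs) are secreted matrix proteins built from repeated leucine-rich motifs, many of which carry glycosaminoglycan chains. The expression of 10 of their genes was followed in IDG-SW3 cells treated with parathyroid hormone (PTH). The genes were Dcn, Bgn and Aspn of class I, Lum, Fmod, Kera, Prelp and Omd of class II, and Ogn and Epyc of class III. They were chosen by symbol among the 23700 gene entries of each library, and each symbol matched 1 entry. IDG-SW3 is a mouse cell line from long bones of mice that carried a Dmp1-GFP reporter and a temperature-sensitive T-antigen, and its cells mature in culture from osteoblast-like towards osteocyte-like. PTH cultures (n = 3) received 50 nM bovine PTH(1-34), the active amino-terminal fragment of the hormone, for 24 hours at day 28, and Control cultures (n = 3) received the same volume of PBS. Both groups had been differentiated in medium that held β-glycerophosphate (4 mM) and ascorbic acid (50 µg/ml). All 6 libraries came from 1 cell line and shared 1 sequencing lane, and the labels do not say whether the cultures were independent. The p-values therefore reflect the spread among these libraries alone, which may be technical.

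SLRP core proteins bind along collagen fibrils and are known to set fibril diameter and spacing in bone, tendon, cornea and skin. Several of them also bind growth factors of the TGF-β and BMP families or cell surface receptors. Decorin and biglycan carry chondroitin or dermatan sulfate chains, lumican, fibromodulin, keratocan and osteomodulin can carry keratan sulfate, and asporin carries no glycosaminoglycan. Many of the genes lie side by side in the mammalian genome, in clusters that hold members of different classes. The PTH receptor is a G protein-coupled receptor that raises cAMP in osteoblasts and osteocytes.

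The values are FPKM, fragments per kilobase of transcript corrected for the depth of the library. Library totals leave out 43 entries without a usable estimate in some library, Col1a1 and Col1a2 among them. The summed FPKM was 465454 to 480300 in the PTH libraries and 430827 to 462979 in the Control libraries. Over the same entries the fragments implied by the authors' error bounds were 22437657 to 24442614 in PTH and 13936555 to 19015406 in Control. By this count every PTH library was deeper. Of 11864 entries with a mean of at least 1 FPKM, 8750 (73.8%) were called by limma at a Benjamini-Hochberg adjusted p under 0.05, and the median change of all tested entries was 0.15 on the log2(FPKM + 1) scale. Of these calls 68.2% were higher with PTH, against 54.4% after median-of-ratios scaling and 55.9% after quantile normalization. Osteoblast and osteocyte markers were expressed in both groups, with a summed 10890 to 12220 FPKM in PTH and 34080 to 34420 FPKM in Control. Much of the sum in PTH was Spp1, at a mean of 5741 FPKM, against 5473 FPKM in Control. Of these markers Fgf23 was near 0 in both groups, and Sost, of mature osteocytes, was near 0 in PTH only (0.0941 FPKM, against 53.3 FPKM in Control). Dmp1 was at 3.64 FPKM in PTH and 826.8 FPKM in Control, and Mepe at 1.61 and 207.8 FPKM. Pdpn was the 1 tested marker of this list called higher. In bulk cultures fewer cells of a type and less RNA per cell cannot be told apart.

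The listed SLRP members that passed the filter were all lower with PTH. Of the 10 members 8 passed the filter, and each of those 8 was above 1 FPKM in every library. All 8 were called lower and none higher, beside 23.5% of all tested entries called lower and 50.3% called higher. The PTH libraries lay below the Control libraries without overlap for all 8, which 25.1% of all entries also did, and 78.2% did not overlap in either direction. The decrease was at least 2-fold on the log2(FPKM + 1) scale for 6 members, beside 4.84% of all entries. The median change of the 8 was -1.28, against 0.15 over all tested entries. Together the 10 members summed to 1443 ± 72.4 FPKM in PTH and 3011 ± 161 FPKM in Control (SD, n = 3 each), and the exact two-sided permutation p was 0.1, the smallest that 3 against 3 libraries allow.

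**Figure D1:**
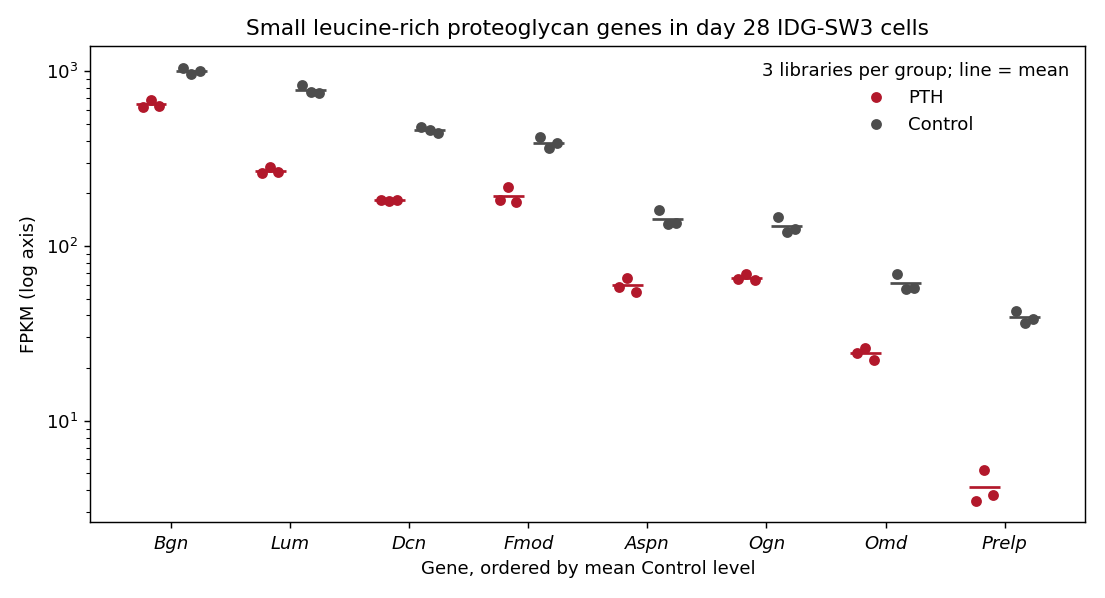
FPKM of the 8 expressed members (log axis) in the 3 PTH libraries, red, and the 3 Control libraries, grey, with lines at the group means. Every red point lies below every grey point of the same gene, with the widest gap at Prelp and the narrowest at Bgn.

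Among the class I genes, Dcn encodes decorin, which coats collagen fibrils and binds TGF-β. Dcn (chr10:96942134-96980796, mm9) was at 182.5, 180.6 and 182.8 FPKM in the PTH libraries, against 477.1, 460.4 and 443.8 FPKM in the Control libraries. The PTH libraries lay within a narrow band, and none came near the Control libraries. The level in PTH was 39.5% of that in Control, a log2 change of -1.33 ± 0.036 (SE; limma adjusted p = 3.09e-07). Only 3.76% of the tested entries had a more negative change.

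Bgn (chrX:70728974-70741275) encodes biglycan, the closest relative of decorin and an abundant proteoglycan of bone matrix. It had the highest FPKM of the family in all 6 libraries, at 627.1, 680.8 and 631.1 in PTH and 1048, 966.4 and 1003 in Control. Its decrease was the smallest of the 8, to 64.3% of the Control level (log2 change -0.64 ± 0.051; limma adjusted p = 4.45e-05). Bgn therefore made up more of the family in the treated cells, 44.6% to 45.1% of the summed member FPKM in PTH and 32.8% to 34.1% in Control. Lum took 18.4% to 18.8% of that sum in PTH and 25.6% to 26.2% in Control, and Dcn 11.8% to 13.1% and 14.9% to 15.9%.

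Aspn encodes asporin, which has a run of aspartates near its amino terminus and binds collagen and calcium. Aspn (chr13:49639812-49662931) was at 58.2, 65.5 and 54.5 FPKM in PTH, against 161.2, 134.0 and 134.6 FPKM in Control. PTH replicate 2 was the highest of its group and Control replicate 1 the highest of the other, with no overlap. The decrease was to 41.4% of Control (log2 change -1.26 ± 0.094; limma adjusted p = 3.34e-05).

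Among the class II genes, Lum encodes lumican, a collagen-binding proteoglycan best known for ordering the fibrils of the cornea. Lum (chr10:97028135-97035337) was at 259.7, 281.6 and 263.4 FPKM in PTH, against 829.9, 759.9 and 751.7 FPKM in Control. This was the second most abundant member in every library of both groups. Its level in PTH was 34.4% of that in Control (log2 change -1.54 ± 0.054; limma adjusted p = 9.43e-07). Fmod encodes fibromodulin, which binds collagen fibrils and is known to guide their cross-linking. Fmod (chr1:135934092-135944854) was at 182.4, 217.7 and 179.1 FPKM in PTH, against 419.9, 363.2 and 386.7 FPKM in Control. PTH replicate 2 stood above the other PTH libraries but well under the lowest Control library. The decrease was to 49.5% of Control (log2 change -1.01 ± 0.089; limma adjusted p = 7.00e-05).

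Prelp had the largest decrease of the 8 tested members. It encodes a protein whose arginine- and proline-rich amino terminus binds heparan sulfate, and it is thought to link basement membranes to the collagen matrix. Prelp (chr1:135806882-135817978) was at 3.49, 5.26 and 3.76 FPKM in PTH, against 42.6, 36.1 and 38.2 FPKM in Control. No PTH library came near the lowest Control library, and PTH replicate 2 was again the highest of its group. The mean in Control was 9.35 times that in PTH, which left 10.7% of the Control level, and the log2 change was -2.96 ± 0.13 (SE; limma adjusted p = 2.67e-06). Of the 11864 tested entries 77 (0.649%) had a more negative change. The implied fragments behind it were still 343 to 533 in each PTH library and 2364 to 3673 in each Control library.

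Omd encodes osteomodulin, also called osteoadherin, a keratan sulfate proteoglycan largely restricted to bone and dentin that binds cells through an integrin. Omd (chr13:49678116-49687978) was at 24.5, 26.0 and 22.4 FPKM in PTH, against 69.3, 57.1 and 57.7 FPKM in Control. The decrease was to 39.6% of Control (log2 change -1.30 ± 0.088; limma adjusted p = 2.04e-05).

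Kera encodes keratocan, a corneal keratan sulfate proteoglycan that is also used as an osteoblast marker. Kera (chr10:97069839-97076322) was barely detected, at 0.079, 0.192 and 0.091 FPKM in PTH and 0.045, 0.030 and 0 FPKM in Control. The FPKM and their bounds imply 19 fragments over the 3 PTH libraries and 3 over the 3 Control libraries. Scaled for depth, the rate in PTH was 4.83 times that in Control, with an exact 95% interval of 1.42 to 25.5 that covers counting error only. Kera was thus the member whose few fragments lay on the other side, higher in each PTH library than in each Control library, but it was under the filter and was not tested in the main comparison. Without the filter its log2 change was 0.13 (limma adjusted p = 0.0470), a value that the pseudocount makes small.

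In class III, Ogn encodes osteoglycin, also called mimecan, a small matrix protein of bone and vessel walls. Ogn (chr13:49703440-49719869) was at 64.6, 69.3 and 63.5 FPKM in PTH, against 146.9, 119.4 and 125.4 FPKM in Control. The decrease was to 50.4% of Control (log2 change -0.97 ± 0.080; limma adjusted p = 5.18e-05). Epyc, for epiphycan of growth plate cartilage (chr10:97106702-97144534), was at 0.022 FPKM in PTH replicate 2 and 0 in the other PTH libraries, and at 0.078 FPKM in Control replicate 1 and 0 in the other Control libraries. These values imply 1 fragment in PTH and 2 in Control, too few for any comparison.

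The sizes of the decreases overlapped between the classes. Class I ran from -1.33 for Dcn to -0.64 for Bgn, class II from -2.96 for Prelp to -1.01 for Fmod, and the tested class III gene stood at -0.97. Their 95% intervals kept Prelp (-3.28 to -2.65) below every other member and Bgn (-0.76 to -0.52) above every other. Dcn (-1.42 to -1.25), Omd (-1.51 to -1.09) and Aspn (-1.48 to -1.03) overlapped one another, and Lum (-1.67 to -1.41) overlapped each of them. Fmod (-1.23 to -0.80) and Ogn (-1.17 to -0.78) overlapped each other, Omd and Aspn. Within groups the libraries moved as a set, since Control replicate 1 was the highest Control library for all 8 members and PTH replicate 2 the highest PTH library for 7.

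**Figure D2:**
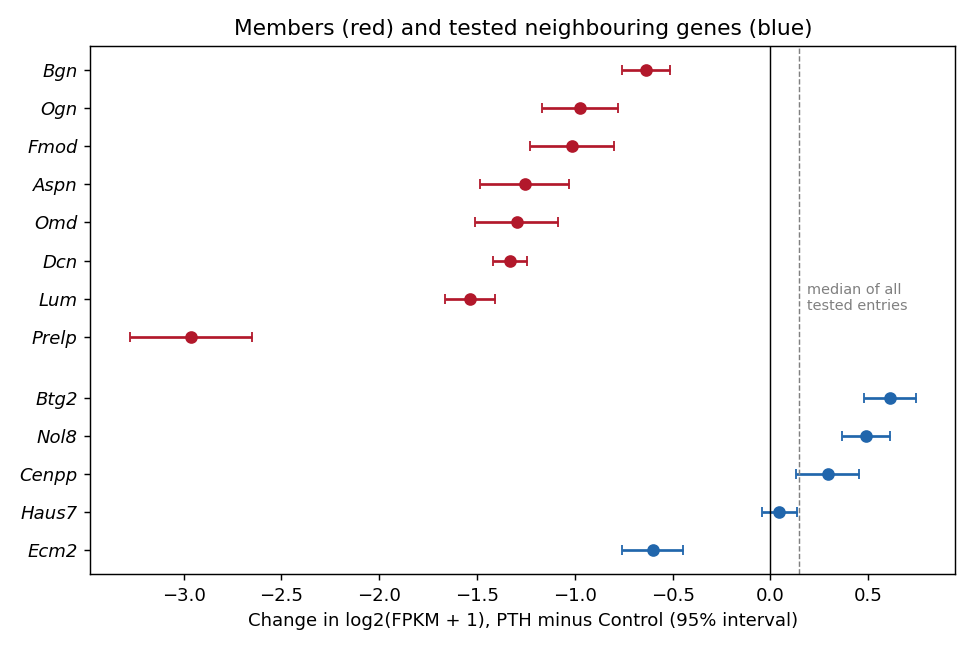
Change in log2(FPKM + 1), PTH minus Control, with its 95% interval from limma for the 8 tested members (red) and the 5 tested neighbouring genes (blue). All members lie left of 0 and of the dashed median of all entries (0.15), while Ecm2 is the only neighbour with a negative change.

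The order of the levels was Bgn, Lum, Dcn, Fmod, Aspn, Ogn, Omd and Prelp in all 3 Control libraries. In PTH the top pair and the bottom pair kept their places. Dcn (182 ± 1.20 FPKM) and Fmod (193 ± 21.4 FPKM) did not differ beyond their spread in PTH, and Fmod was above Dcn in PTH replicate 2 only. Ogn was above Aspn in all 3 PTH libraries and below it in all 3 Control libraries.

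The members form 3 clusters, and neighbours were set side by side as the ratio of their FPKM within each library, which does not depend on how libraries are scaled. For 8 pairs the ratio could be formed. In 7 of them the PTH and Control ratios did not overlap, with an exact two-sided permutation p of 0.1 each, the smallest possible, and 0.114 after Benjamini-Hochberg adjustment over the 8 pairs. No pair can therefore pass a threshold of 0.05 with these numbers of libraries. The share of such ratios among pairs of other genes was not computed. Of single tested entries 78.2% did not overlap in either direction, so the 7 pairs cannot be called particular to these genes. Pairs with Kera and Epyc were not formed because of their zeros.

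On chromosome 10, Dcn, Lum, Kera and Epyc lie in that order within 202.4 kb. Dcn and Lum, 47.3 kb apart, both decreased, while Kera and Epyc beyond them were near 0 in both groups. The ratio of Dcn to Lum was 0.703, 0.641 and 0.694 in PTH, against 0.575, 0.606 and 0.590 in Control, a log2 difference of 0.20 ± 0.047 (SE). The predicted gene 4930473O22Rik between Lum and Kera and the flanking entries Mir3966 and 4921510H08Rik were listed at 0 in every library. Gm10754, which overlaps the end of Epyc, was at 0.023 FPKM in PTH replicate 2 and 0 in the other libraries.

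On chromosome 1, Prelp and Fmod lie 116.1 kb apart, with no listed entry between them. Of the 8 pairs this one had the largest difference between the groups. The ratio of Fmod to Prelp was 52.2, 41.4 and 47.7 in PTH, against 9.86, 10.1 and 10.1 in Control, a log2 difference of 2.23 ± 0.098 (SE). The ratio was nearly constant over the Control libraries, and the lowest PTH library was above the highest Control library. On the far side of Prelp, Optc, the class III gene of opticin, was under the filter at 0.396 ± 0.052 FPKM in PTH and 0.756 ± 0.306 FPKM in Control (SD, n = 3 each). Beyond Fmod, Btg2, an antiproliferative gene, was higher with PTH at 18.5 ± 0.825 FPKM, against 11.8 ± 0.812 FPKM in Control (log2 change 0.61; limma adjusted p = 8.57e-05).

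On chromosome 13, Aspn, Omd and Ogn lie within 80.1 kb, with gaps of 15.2 and 15.5 kb. The ratio of Omd to Aspn hardly moved, at 0.42, 0.397 and 0.411 in PTH and 0.430, 0.426 and 0.428 in Control (log2 difference -0.06 ± 0.024, SE). That difference was -0.04 without PTH replicate 2, and with 1 FPKM added to each level it was also -0.04 with an exact permutation p of 0.2. The ratio of Omd to Ogn was 0.379, 0.376 and 0.352 in PTH, against 0.471, 0.478 and 0.460 in Control (log2 difference -0.35 ± 0.037). The ratio of Ogn to Aspn was 1.11, 1.06 and 1.17 in PTH, against 0.911, 0.891 and 0.932 in Control (log2 difference 0.29 ± 0.045). Ogn thus kept more of its level than the genes on its upstream side. Ecm2, a matrix gene with leucine-rich repeats just upstream of Aspn, was also lower, at 1.75, 2.15 and 2.12 FPKM in PTH, against 3.66, 3.57 and 3.44 FPKM in Control (log2 change -0.60; limma adjusted p = 0.000189).

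The gene annotation places all 4 of these genes on the plus strand inside intron 5 of Cenpp, which encodes a centromere protein and runs on the minus strand (GENCODE M21, GRCm38). Cenpp was higher with PTH, at 6.63, 6.89 and 5.80 FPKM, against 5.32, 4.76 and 5.11 FPKM in Control (log2 change 0.29; limma adjusted p = 0.00663). Nol8, a nucleolar protein gene next to Ogn, was higher as well, at 10.5 ± 0.562 FPKM in PTH and 7.17 ± 0.349 FPKM in Control (log2 change 0.49; limma adjusted p = 0.000157). No source used here gives the strand setting of the counting, and fragments of the nested genes and of their host may not be fully separated. On the X chromosome, Haus7, next to Bgn, was at 20.6 ± 0.717 FPKM in PTH and 19.95 ± 0.522 FPKM in Control and was not called (log2 change 0.05, 95% interval -0.04 to 0.13). Haus7 had a negative change under all 3 other scalings and was called lower after quantile normalization (-0.11; limma adjusted p = 0.0394).

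**Figure D3:**
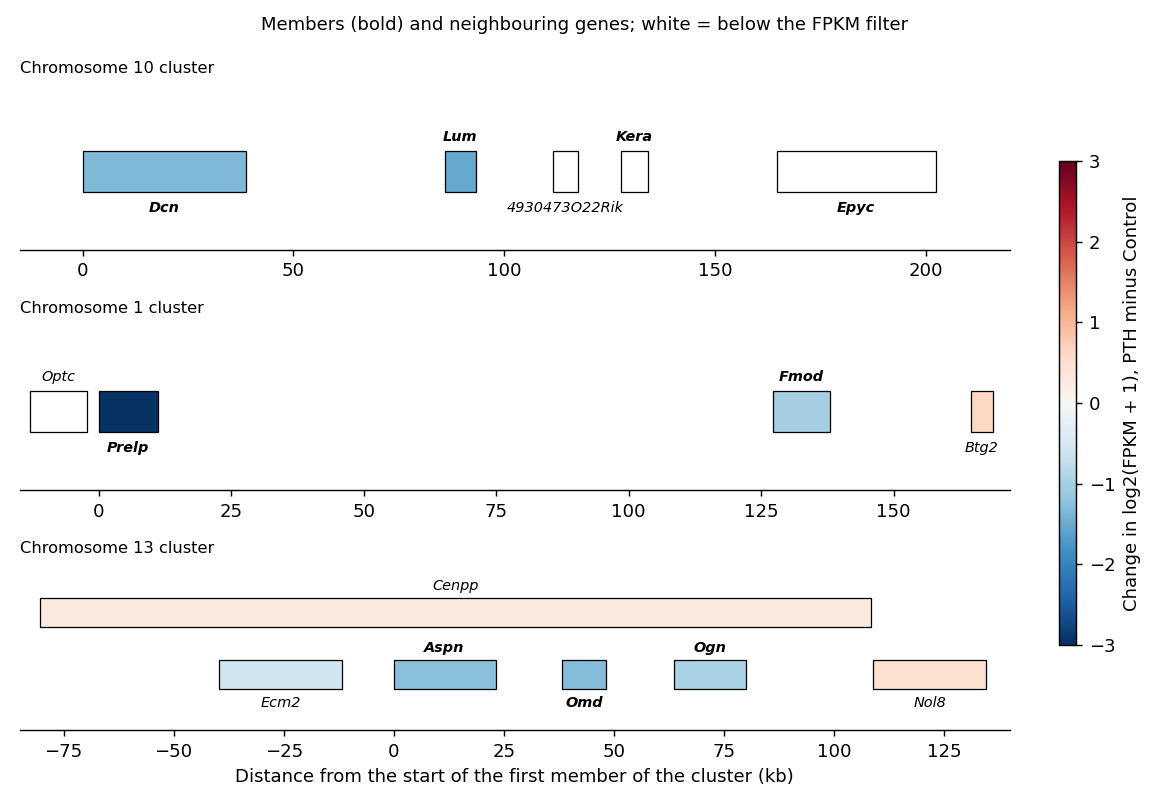
Position of the members (bold) and neighbouring genes in the 3 clusters, as distance in kb from the start of the first member, with the fill giving the change in log2(FPKM + 1), PTH minus Control. Blue members sit beside white entries under the FPKM filter and pale red genes such as Btg2, Nol8 and the host gene Cenpp, and the darkest blue is Prelp (-2.96). On chromosome 10 Mir3966, Gm10754 and 4921510H08Rik are not drawn.

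Genes of 1 class on different chromosomes were compared in the same way. The ratio of Dcn to Bgn was 0.291, 0.265 and 0.290 in PTH, against 0.455, 0.477 and 0.442 in Control (log2 difference -0.70 ± 0.053, SE). The ratio of Fmod to Lum was 0.703, 0.773 and 0.680 in PTH, against 0.506, 0.478 and 0.514 in Control (log2 difference 0.52 ± 0.064). The ratio of Aspn to Dcn overlapped between the groups, at 0.319, 0.363 and 0.298 in PTH and 0.338, 0.291 and 0.303 in Control (log2 difference 0.07 ± 0.105; exact permutation p = 0.6). Without PTH replicate 2 that difference was -0.01, so its sign rests on 1 library.

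**Figure D4:**
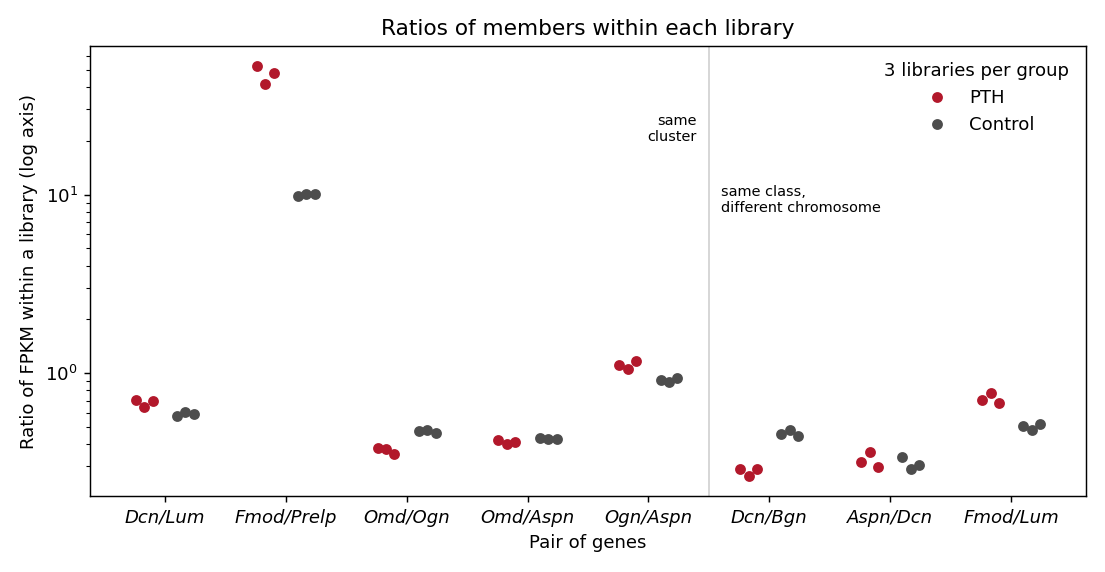
Ratio of the FPKM of 2 members within each library (log axis) for the 5 pairs of 1 cluster and the 3 pairs of 1 class, PTH in red and Control in grey. Fmod/Prelp shows the widest gap, 41.4 to 52.2 in PTH and 9.86 to 10.1 in Control, and Aspn/Dcn is the pair whose groups overlap.

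The genes differ in structure as their classes do. In the GENCODE M21 annotation Dcn, Bgn and Aspn have 8 exons, of which 7 are coding. Lum, Kera, Fmod, Prelp and Omd have 3 exons, of which 2 are coding, and the larger coding exon holds 74.1% (Omd) to 86.8% (Fmod) of the coding length. Ogn has 7 exons and Epyc 8, with 6 coding exons each. Prelp and Fmod, the neighbouring pair with the largest difference in ratio, share the 3-exon form but lie on opposite strands.

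The 250 bases upstream of the start were read from RefSeq (GRCm38.p6), where 8 members matched with 9 windows and Dcn and Lum had none. Those of Prelp and Fmod are shown as the neighbours that differed most, that of Bgn as the smallest decrease, and that of Ogn as the member of the chromosome 13 cluster with the smallest decrease. They are printed 5′ to 3′ on the strand of the gene, and capitals mark matches to the motifs described after them. The windows are chr1:133921402-133921651 on the minus strand for Prelp, chr1:134037004-134037253 on the plus strand for Fmod, chrX:73483351-73483600 on the plus strand for Bgn and chr13:49607765-49608014 on the plus strand for Ogn.
Prelp: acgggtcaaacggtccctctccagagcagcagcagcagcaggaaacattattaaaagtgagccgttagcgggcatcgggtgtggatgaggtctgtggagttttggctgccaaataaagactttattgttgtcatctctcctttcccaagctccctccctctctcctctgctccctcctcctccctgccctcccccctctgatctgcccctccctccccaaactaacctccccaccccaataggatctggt
Fmod: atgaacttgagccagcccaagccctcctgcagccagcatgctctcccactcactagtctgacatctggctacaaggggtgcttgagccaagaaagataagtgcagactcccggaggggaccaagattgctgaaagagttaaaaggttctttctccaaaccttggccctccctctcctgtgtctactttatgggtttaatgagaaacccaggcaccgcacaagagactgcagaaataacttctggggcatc
Bgn: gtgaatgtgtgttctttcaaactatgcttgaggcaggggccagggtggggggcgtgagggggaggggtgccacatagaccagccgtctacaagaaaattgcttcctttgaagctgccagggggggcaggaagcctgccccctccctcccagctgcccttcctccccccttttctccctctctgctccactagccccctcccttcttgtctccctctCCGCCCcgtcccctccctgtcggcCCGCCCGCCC
Ogn: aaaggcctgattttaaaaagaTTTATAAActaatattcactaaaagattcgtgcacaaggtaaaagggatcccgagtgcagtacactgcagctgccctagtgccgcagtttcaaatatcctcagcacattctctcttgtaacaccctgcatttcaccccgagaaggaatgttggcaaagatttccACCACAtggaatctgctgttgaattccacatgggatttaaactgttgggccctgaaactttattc

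Both strands were searched for 6 short motifs, and a match is a description of letters only. Dcn and Lum were not searched, and the 9 windows include those of the barely detected Kera and Epyc. The full cAMP response element, TGACGTCA, was in none of the 9 windows and in 1.55% of 32851 promoter windows of this length. Its shorter core TGACG, which the full element also contains, was in none of the 9 and in 17.8% of all, and the AP-1 motif TGANTCA in none and in 6.75%. The RUNX motif TGTGGT was in the Ogn window alone, 65 bases upstream of the start, and in 14.0% of all windows. The GC box GGGCGG was in the Bgn window alone, at 34, 10 and 6 bases upstream, and in 32.7% of all windows. TATAAA was in the windows of Aspn (207 and 178 bases upstream) and Ogn (229 and 227 bases upstream, on opposite strands and overlapping) and in 12.4% of all. The Bgn window was the richest in G and C of those matched (64.4%) and the Aspn window the poorest (30.0%), and the median over all windows was 52.4%.

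The tested genes among the rest of the family did not move as a block. Of 8 other SLRP or related genes 4 passed the filter, of which 2 were higher and 2 lower (median change -0.04). Beside them 50.3% of all tested entries were called higher and 23.5% lower. Podnl1 (podocan-like 1) was higher, at 81.7, 70.2 and 80.5 FPKM in PTH, against 47.9, 50.6 and 49.5 FPKM in Control. Tsku, for tsukushi, a secreted BMP and Wnt modulator, was also higher, at 18.1 ± 0.380 FPKM in PTH and 12.3 ± 0.601 FPKM in Control. Podn, for podocan, was lower at 1.30 ± 0.230 FPKM in PTH and 2.66 ± 0.411 FPKM in Control, beside Ecm2 described above. Nyx, Chad, Chadl and Optc were under the filter and were not tested. Their means in PTH were 4.45%, 28.8%, 92.2% and 52.4% of those in Control, all lower. For Chadl and Optc the libraries of the groups overlapped.

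The enzymes that build and sulfate the chondroitin and dermatan sulfate chains of decorin and biglycan moved both ways. Of 25 listed 22 were tested, with 7 higher, 14 lower and 1 not called (median change -0.21). Beside them 50.3% of all tested entries were called higher and 23.5% lower. Under the other scalings 5 were higher and 14 to 15 lower. Csgalnact1, which starts chondroitin chains, was higher at 31.5, 34.4 and 32.1 FPKM in PTH, against 3.66, 3.31 and 2.96 FPKM in Control (log2 change 2.97; limma adjusted p = 1.36e-07). Chst12, a chondroitin 4-O-sulfotransferase, and B3galt6, of the linker region, were higher by 0.75 and 0.59 on the log2 scale. Chst13, another 4-O-sulfotransferase, was lower at 0.645, 0.370 and 0.571 FPKM in PTH, against 11.1, 9.29 and 10.9 FPKM in Control (log2 change -2.90; limma adjusted p = 6.35e-07). Chst13 passed the filter only through its level in Control, so it could enter the counts only as lower. Chst15, which makes the disulfated E unit, was at 2.05 ± 0.074 FPKM in PTH and 11.8 ± 0.357 FPKM in Control (log2 change -2.07). Papss2, which makes the sulfate donor, was at 8.51 ± 0.301 FPKM in PTH and 28.1 ± 0.527 FPKM in Control (log2 change -1.61).

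Keratan sulfate and tyrosine sulfation enzymes act on lumican, fibromodulin and osteomodulin. Of 10 listed 6 were tested, with 4 higher and 2 lower (median change 0.33), beside 50.3% and 23.5% of all tested entries. Under the other scalings 3 to 4 were higher. The call that was lost was Tpst1, a tyrosine sulfotransferase gene, with limma adjusted p of 0.182 after median-of-ratios scaling and 0.398 after quantile normalization, against 0.0112 in the main comparison. Chst2, a GlcNAc 6-O-sulfotransferase, was at 9.03 ± 0.125 FPKM in PTH and 3.71 ± 0.231 FPKM in Control (log2 change 1.09). B4galt1, a galactosyltransferase, was at 70.1 ± 0.903 FPKM in PTH and 33.4 ± 0.792 FPKM in Control (log2 change 1.05), and B3gnt2, which extends lactosamine chains, was higher by 0.45 on that scale. The lower calls, B4galt4 (-0.20; limma adjusted p = 0.0373) and Tpst2 (-0.15; limma adjusted p = 0.0285), were small and were lost without any of several single libraries. For B4galt4 those were PTH replicates 2 and 3 and Control replicates 1 and 2, with adjusted p of 0.0683 to 0.105. For Tpst2 they were all 3 PTH replicates and Control replicates 1 and 3, with 0.0623 to 0.0908.

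Of 13 listed proteases known to cut SLRP core proteins or their propeptides, with their enhancers, 11 were tested. Of these 8 were higher, 1 lower and 2 not called, beside 50.3% of all tested entries called higher (median change 0.62, against 0.15 over all entries), and under the other scalings 2 were lower. Adamts4 and Adamts5, the aggrecanases, were at 30.2 ± 1.19 and 33.8 ± 1.01 FPKM in PTH and at 7.16 ± 0.145 and 8.94 ± 0.812 FPKM in Control (log2 changes 1.93 and 1.81). Gzmb, for granzyme B, was at 7.89 ± 0.925 FPKM in PTH and 0.141 ± 0.102 FPKM in Control, but granzyme genes are close copies of each other and its value is uncertain. Gzmb also passed the filter only through its level in PTH, so it could enter the counts only as higher. Bmp1, the procollagen C-proteinase that also trims the biglycan propeptide, was at 179.7 ± 2.93 FPKM in PTH and 116.5 ± 2.06 FPKM in Control, and was named after its value was seen. Pcolce2, an enhancer of that enzyme, was the lower one, at 2.98 ± 0.747 FPKM in PTH and 5.38 ± 0.239 FPKM in Control (log2 change -0.70).

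The fibrillar collagens and the genes of fibrils that SLRPs coat also split. Of 15 listed 13 were tested, with 8 higher and 5 lower (median change 0.37), beside 50.3% and 23.5% of all tested entries. Under the other scalings 7 were higher and 5 lower. Col3a1 was at 1870, 2247 and 1891 FPKM in PTH, against 821.5, 699.3 and 767.2 FPKM in Control (log2 change 1.39; limma adjusted p = 1.80e-05). Col6a1 and Col5a3 were higher by 0.95 and 0.89 on the log2 scale. Col2a1 was at 2.21 ± 0.190 FPKM in PTH and 20.2 ± 1.79 FPKM in Control (log2 change -2.72) and is also counted among the chondrocyte markers, and Col11a2 at 24.5 ± 2.96 FPKM in PTH and 146.8 ± 7.48 FPKM in Control (log2 change -2.54). Lox, for lysyl oxidase, which cross-links collagen, was at 629.4 ± 4.86 FPKM in PTH and 863.6 ± 13.04 FPKM in Control (log2 change -0.46). Col1a1 and Col1a2, the main collagens of bone, have no estimate in Control, where the locus held more fragments than the program's limit, and were left out.

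Ligands and receptors of decorin and biglycan gave 6 higher, 5 lower and 1 not called of 12 tested of 13 (median change 0.10). Beside them 50.3% of all tested entries were called higher and 23.5% lower. Under the other scalings 5 were higher. Egfr, a decorin receptor, was at 13.4 ± 0.877 FPKM in PTH and 3.29 ± 0.521 FPKM in Control (log2 change 1.75). Cd14, a co-receptor for biglycan, and Lrp1, which takes up decorin, were higher by 1.09 and 1.03 on the log2 scale. Bmp4 was at 22.3 ± 0.425 FPKM in PTH and 44.7 ± 0.640 FPKM in Control (log2 change -0.97). Tgfb2 and Tlr4, a receptor for biglycan, had log2 changes of -0.89 and -0.61.

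**Figure D5:**
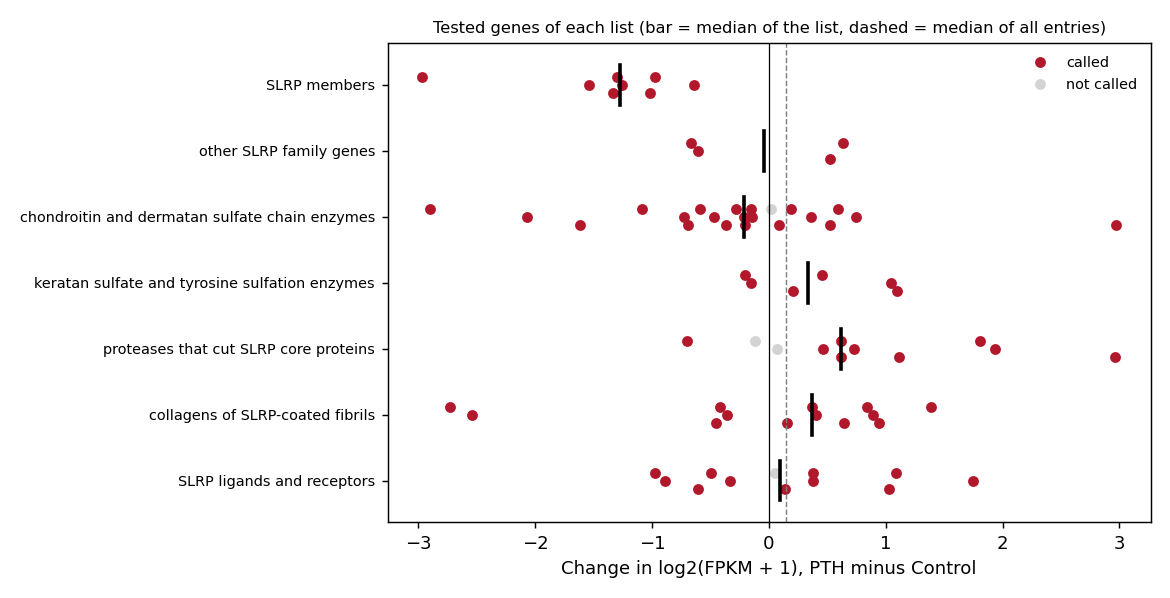
Change in log2(FPKM + 1), PTH minus Control, of each tested gene of the SLRP members and of 6 related lists, with called genes in red, genes not called in grey, a bar at the median of the list and a dashed line at the median of all entries (0.15). The tested members lie wholly left of 0 (median -1.28), while each of the other 6 lists plotted holds genes on both sides. All 7 adipocyte markers, not plotted, were also called lower (median -1.90), and of these Cidec passed the filter only through its level in Control.

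Markers of some other cell types were lower with PTH as well. The counts below stand beside 23.5% of all tested entries called lower and 50.3% called higher. All 7 adipocyte markers were called lower, with a summed 72.8 to 151.7 FPKM in PTH and 533.6 to 754.2 FPKM in Control. Of 6 tested of 8 chondrocyte markers 5 were lower and 1 higher, with 56.6 to 70.7 FPKM in PTH and 188.3 to 209.4 FPKM in Control, and Matn1 was near 0. Of 4 tested of 5 tenocyte markers 2 were lower and 2 not called, with 27.9 to 30.5 FPKM in PTH and 28.3 to 33.9 FPKM in Control. The lower ones, Tnmd and Thbs4, passed the filter only through Control. They were at 0.934 and 0.212 FPKM in PTH, against 2.12 and 2.68 FPKM in Control. So did Acan of the chondrocyte list (0.15 FPKM in PTH and 2.96 FPKM in Control) and Cidec of the adipocyte list (0.656 and 2.72 FPKM). Such genes could enter the counts only as lower. Among 11 tested osteoblast and osteocyte markers 8 were lower, 1 higher and 2 not called, and Sost, described above, also passed the filter only through Control. The 4 endothelial markers summed to at most 0.127 FPKM in PTH and 0.106 FPKM in Control, and those of muscle to 18.2 to 18.9 FPKM in PTH and 12.2 to 12.5 FPKM in Control, nearly all of it Acta1, with Myod1 at 0. Of 3 tested macrophage and osteoclast markers 2 were higher and 1 lower, with 304.5 to 316.0 FPKM in PTH and 261.4 to 274.3 FPKM in Control, mostly Ctsk, and Ptprc and Emr1 were at or near 0. The part of these cell types in the SLRP values was not tested.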

How the data were processed

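RNA was extracted from 3 PTH and 3 Control cultures with TRIzol, and libraries were made with the Illumina TruSeq RNA v2 kit. The authors deposited 1 table of gene-level FPKM per library, with lower and upper bounds and a status for each entry. The submitters' processing notes name CASAVA 1.8, Bowtie2, TopHat, Cuffdiff, SAMtools and the build mm9. No source used here gives the gene annotation or the strand setting. A deposited Cuffdiff comparison of the groups, with the authors' fold changes and p-values, was not used.

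Groups and replicate numbers came from the labels. Entries were joined by symbol and locus. Listed starts were read as 0-based and are printed 1-based. Implied fragments are (FPKM / SE) squared, with the SE taken as the distance from the FPKM to its upper bound divided by 2. Bounds and counting intervals cover counting error only.

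Entries with a mean of at least 1 FPKM over the 6 libraries were tested on log2(FPKM + 1), which understates the change of low genes, with lmFit and trended eBayes of limma 3.58.1 (R 4.3.3) and Benjamini-Hochberg adjustment over all 11864 entries. Of the rest 11793 were below the filter and 43 had a HIDATA or FAIL status in a library. The fit was tested on simulated data. Ratios of members were compared by exact two-sided permutation (Python 3.11.15, scipy 1.17.1). Alternatives were other pseudocounts, filters and scalings, no variance trend, a replicate block and leaving out each library. Named were the 10 members, the neighbours of each cluster, and up to 3 called genes in each direction per list. The members and lists were chosen with earlier results of these data known.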

Additional observations from a re-analysis of the deposited data

How the results depend on the processing

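Each of the 8 tested members stayed called lower under all 15 alternatives of the fit, with an adjusted p of at most 0.00100 by limma. The number of members at least 2-fold lower, 6 in the main comparison, ran from 5 to 7. Fmod (-1.01) and Ogn (-0.97) lay close to that cut. The log2 change of Prelp ran from -3.21 to -2.87 and that of Bgn from -0.82 to -0.61. The direction of the ratio differences held as well, except that the Aspn/Dcn difference ran from -0.0098 (without PTH replicate 2) to 0.1325 (without PTH replicate 3), against 0.0689 with all libraries. With 1 FPKM added to each level, the exact p of Omd/Aspn was 0.2 in place of 0.1. Replicate numbers gave no sign of pairing. Deviations of same-numbered libraries correlated at -0.08, 0.00 and -0.04, and those of differently numbered libraries at -0.09 to 0.12. With 3 libraries a group this cannot show that the cultures were unpaired. The fit with a replicate block called 8576 entries, against 8750 without it, and all 8 members. What the data can show is limited by 3 libraries a group for the ratios, where no exact p can go below 0.1, and by depth for Kera and Epyc.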

Other observations

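Among the related genes under the filter, which were not tested, the level of some was far apart between the groups. These were picked after their values were seen. Xylt1, one of the xylosyltransferase genes whose enzymes start glycosaminoglycan chains on core proteins, was at 0.241, 0.187 and 0.167 FPKM in PTH, against 1.07, 1.18 and 1.08 FPKM in Control. Nyx, the SLRP family gene of nyctalopin, was at 0.0101, 0.0098 and 0.0093 FPKM in PTH, against 0.254, 0.228 and 0.176 FPKM in Control. Chad, for chondroadherin of cartilage and bone, was at 0.191, 0.116 and 0.329 FPKM in PTH, against 0.978, 0.717 and 0.514 FPKM in Control. For each of these genes the PTH libraries lay below all Control libraries, which 25.1% of the tested entries also did. In either direction 78.2% of the tested entries did not overlap. The implied fragments were few, at 51 in PTH and 218 in Control for Xylt1. They were 3 and 52 for Nyx, and 28 and 74 for Chad.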
